A study of Mus musculus with 7 samples.

Results

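The axon guidance families comprise the semaphorins with their plexin and neuropilin receptors, the ephrins with their Eph receptors, the Slits with Robo, and the netrins with Unc5. The families were chosen with earlier results of these data known. Their members were taken by symbol (Sema, Plxna to Plxnd, Nrp1 and Nrp2, Efna and Efnb, Epha and Ephb, Slit, Robo, Ntn, Ntng and Unc5a to Unc5d), with no measured value used in the match, and 52 of the 12771 genes in the count table matched: 29 ligands and 23 receptors. Of these, 50 had a mean normalized count above 5, and Plxnc1 and Sema3d (means of 3.40 and 4.55) did not.

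Semaphorins are secreted or membrane-bound proteins that bind plexins. Secreted class 3 members usually need a neuropilin as co-receptor, and plexin signaling loosens integrin adhesion and rearranges the cytoskeleton. Ephrins and Eph receptors are both anchored to the membrane and signal in both directions where neighboring cells touch. Slits repel cells through Robo, and netrins attract through Dcc and neogenin or repel through Unc5, a family also known as dependence receptors because they can trigger cell death when no ligand is bound. Outside the nervous system these proteins act in vessel patterning, in the movement of fibroblasts and in nerve growth into pancreatic tumors.

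Expression was measured in cancer-associated fibroblasts (CAFs) of tumors grown in the pancreas of C57BL/6 males (C57BL/6J in the methods) aged 8 weeks at injection. The injected KPC cells, a mouse cancer line of pancreatic origin, carried by lentivirus either a non-targeting hairpin (KPC-shControl, 3 libraries, replicates 1, 2 and 4) or a hairpin against Brca2 (KPC-shBrca2, 4 libraries, replicates 1, 2, 3 and 4). Tumors were taken 2 to 3 weeks after injection, and live CD45-/CD31-/EpCAM-/PDPN+ cells were sorted, so the hairpin was in the cancer cells and not in the host CAFs that were sequenced. The comparison asked how expression in CAFs differed with the Brca2 status of the cancer cells, in 1 parental cancer line and a single time window.

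Libraries held 1898679 to 5990579 counted reads from the 3′ ends of transcripts, so values were compared between groups gene by gene and not between genes, and the highest mean of a family refers to counts and not to a level per transcript. The 10 fibroblast markers were all present, with summed normalized counts of 140771 to 159034 in KPC-shControl CAFs and 113407 to 135414 in KPC-shBrca2 CAFs, where Dcn and Lum were called lower. Col3a1 had means of 54982 and 40400 (log2 -0.44) and Dcn of 20576 and 12091. Pdpn (-0.25) was lower without overlap. Col1a1 (-0.04), Col1a2 (-0.09), Thy1 (-0.09) and Vim (-0.18) had negative log2 changes and Pdgfra (0.01) and Fap (0.05) positive ones. Only Dcn and Lum were called on this list. Marker sums of other cell types also differed. Epithelial markers (7 of 10 in the table, Epcam, Cldn4 and Ocln not among them) summed to 412, 803 and 1166 in the controls and 1468 to 2059 in the KPC-shBrca2 libraries, with Krt7, Krt8, Krt18 and Krt19 called higher. Immune markers (7 of 10, without Ptprc, Adgre1 and Itgam) summed to 269 to 306 and 410 to 436, with Csf1r (means of 113 and 248) and C1qa called higher. The groups overlapped for C1qa. C1qb and Tyrobp had positive log2 changes and Cd68 (-0.32), Lyz2 (-0.26) and Fcer1g (-0.11) negative ones, none of these called. Pericyte markers (9 of 10) summed to 914, 1827 and 1014 in control replicates 1, 2 and 4 and to 1857 to 2397, with Notch3, Des and Ndufa4l2 called higher. The largest means on this list were those of Des (526 and 950) and Ndufa4l2 (287 and 732). Rgs5, Cspg4 and Mcam had positive log2 changes and Kcnj8 (-0.13), Abcc9 (-0.32) and Myh11 (-0.11) negative ones, none of these called. Endothelial markers (8 of 12, without Cdh5, Tie1, Emcn and Cldn5) summed to 137 to 265 and 236 to 338, with Flt1 called higher. Kdr, Egfl7, Esam and Erg had positive log2 changes and were not called. Pecam1 (log2 -3.60), Tek (-1.55) and Vwf (-1.11) were lower without overlap and not called either. For Pecam1 the DESeq2 adjusted p was 0.0311, but its mean normalized count did not exceed 5. Mesothelial markers (9 of 10) summed to 1068 to 3239 and 1984 to 2601. Of these, Calb2 was called higher, with no read in any control and normalized counts of 26.7, 8.16, 38.0 and 8.13 in the KPC-shBrca2 libraries. It thus passed the minimum mean only through the KPC-shBrca2 libraries. Msln was not called but did not overlap (96.5 to 519 against 558 to 665). Upk1b, Wt1, Bnc1 and Gpm6a had positive log2 changes and Upk3b (-0.40), Rspo1 (-0.60) and Lrrn4 (-0.09) negative ones, none of these called. Schwann cell sums (5 of 10) overlapped between the groups, with none of these markers called. The part of these cells in the results that follow was not tested, and in bulk samples a change in the number of cells of a type and a change in RNA per cell cannot be told apart.

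A gene was called changed when its adjusted p in the DESeq2 likelihood ratio test was under 0.1, its log2 fold change exceeded 0.5 in size and its mean normalized count exceeded 5. Among the guidance genes 13 of 52 were called (25.0%), against 9.04% of all genes tested. They split into 7 higher in KPC-shBrca2 CAFs (3.77% of all genes were higher) and 6 lower (5.27% of all genes were lower). Unc5b, Efna5, Sema3f, Sema4b, Sema3a, Slit1 and Plxna2 rose, and Ephb2, Sema3c, Sema4a, Plxna3, Sema3b and Sema6c fell. The genes therefore moved both ways, and the median log2 fold change of the 52 members was -0.09, against 0.01 over all genes, while the median size of the change was 0.46 against 0.28. Scaling the libraries by total count in place of DESeq2 size factors raised the median of all genes by 0.11 on the log2 scale and turned the split into 9 higher and 2 lower, with Sema3c, Sema4a, Plxna3 and Sema6c no longer called and Epha2 and Plxnb1 called higher.

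**Figure D1:**
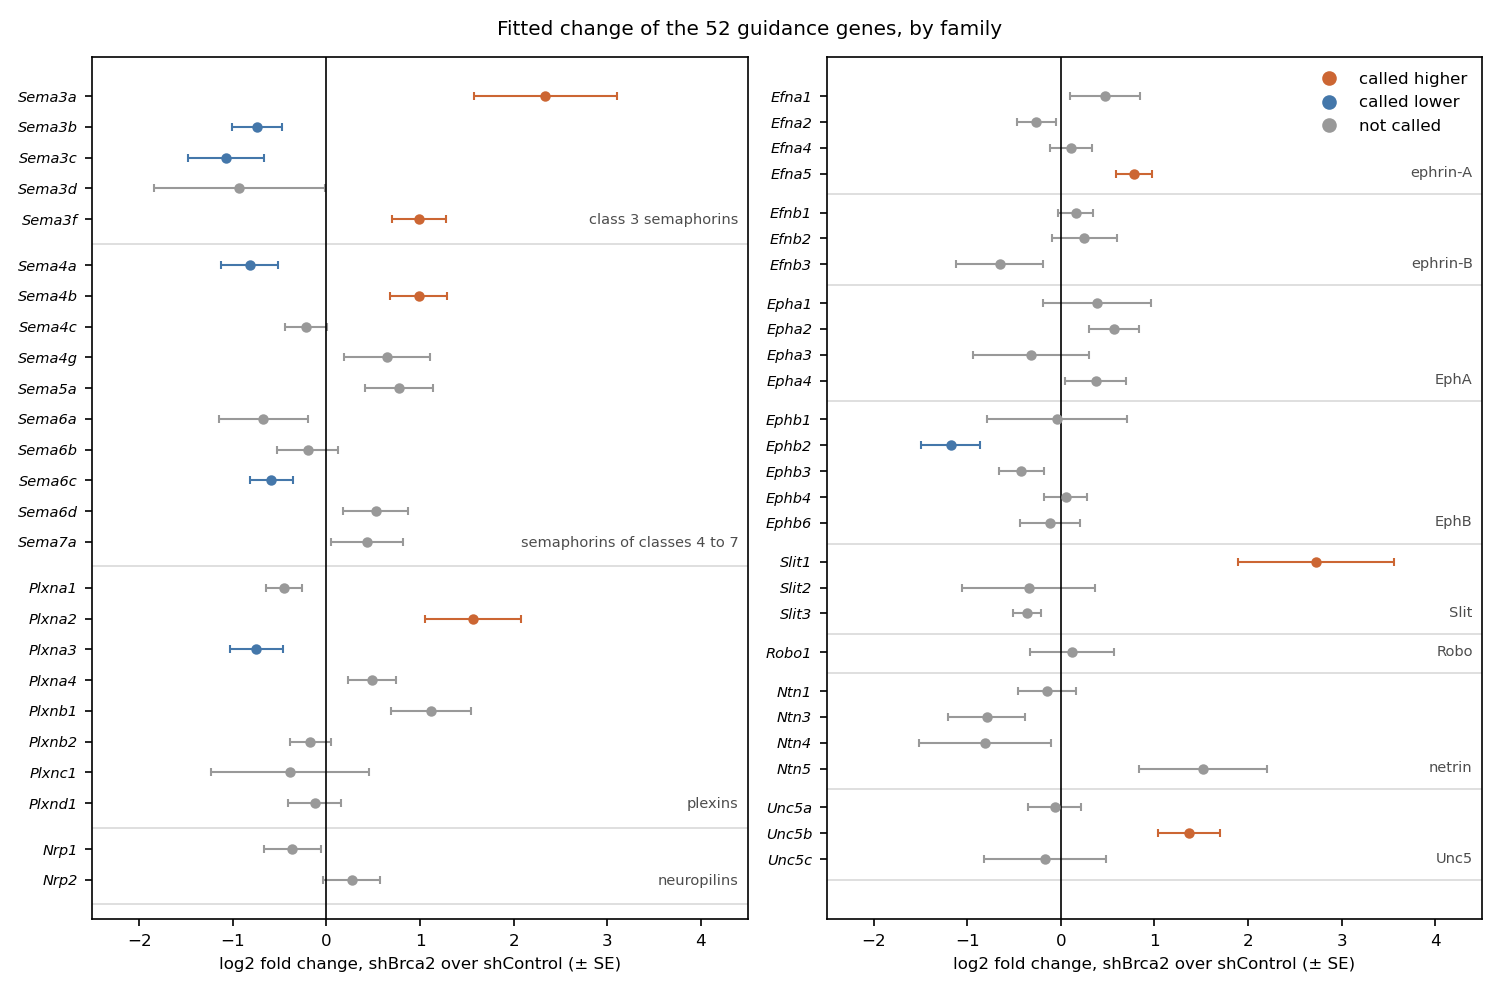
Log2 fold change with its standard error (x axis, shBrca2 over shControl) for each of the 52 guidance genes, grouped by family, from the fit on 3 KPC-shControl and 4 KPC-shBrca2 libraries. The 7 genes called higher (orange) and the 6 called lower (blue) are spread over the families, with 7 of the 13 among the 15 semaphorins and none among the neuropilins, the ephrin-B, EphA and netrin genes and Robo1.

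The groups of 15 of the 52 members did not overlap (28.8%; 8 higher and 7 lower), against 17.1% of all genes (7.78% higher and 9.29% lower). Ligands were called in 9 of 29 cases (5 higher, 4 lower) and receptors in 4 of 23 (2 higher, 2 lower). By family, the calls fell on 4 of 5 class 3 semaphorins, 3 of 10 semaphorins of classes 4 to 7, 2 of 8 plexins and 1 each of 4 ephrin-A genes, 5 EphB genes, 3 Slits and 3 Unc5 genes. DESeq2 called 0 of the 2 neuropilins, 3 ephrin-B genes, 4 EphA genes, 4 netrins and 1 Robo, with 1 EphA gene (Epha2) and 1 netrin (Ntn5) at an unadjusted p under 0.05, and edgeR also called 0 of them.

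The secreted class 3 semaphorins moved in opposite directions within the class. Sema3f, a ligand of neuropilin-2 known for repelling vessels and tumor cells, had normalized counts of 70.0, 129 and 183 in the KPC-shControl libraries (replicates 1, 2 and 4, the order used throughout) and 278, 234, 283 and 215 in the KPC-shBrca2 libraries (replicates 1 to 4). All KPC-shBrca2 values lay above all control values, and the mean rose from 127 ± 56.4 (SD, n = 3) to 253 ± 33.2 (n = 4), a 1.99-fold rise (log2 0.99 ± 0.29 SE, DESeq2 adjusted p = 0.0161). The lowest control was replicate 1, and without it the difference was 0.68 on the log2 scale with a DESeq2 adjusted p of 0.116.

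Sema3a, the founding vertebrate semaphorin and a ligand of neuropilin-1, was close to the detection limit in the controls. Its normalized counts were 0, 6.33 and 1.95 in KPC-shControl CAFs and 14.6, 11.1, 8.64 and 15.2 in KPC-shBrca2 CAFs (raw counts of 0 to 19), again without overlap. The mean was 2.76 ± 3.24 against 12.4 ± 3.11, and the fitted log2 change was 2.34 ± 0.76 (DESeq2 adjusted p = 0.0305). The call was lost without control replicate 1 or 4 or KPC-shBrca2 replicate 1 or 4 (adjusted p of 0.166 to 0.316), where the log2 change was 1.66, 2.17, 2.22 and 2.20, and without control replicate 2 it was 3.77.

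Sema3b, a neighbor of Sema3f known as a candidate tumor suppressor, was lower. Control values of 246, 262 and 252 lay close together, whereas the KPC-shBrca2 values of 107, 208, 187 and 107 were spread out and all below them. The mean fell from 253 ± 8.02 to 152 ± 52.8 (log2 -0.74 ± 0.27, DESeq2 adjusted p = 0.0634). The call held without KPC-shBrca2 replicate 2 or 3 and was lost when any of the other 5 libraries was left out, with adjusted p between 0.121 and 0.286. Sema3b (chr9:107597674-107609241) and Sema3f (chr9:107681499-107710475; both GRCm38) are separated by 72.3 kb on chromosome 9, and their changes had opposite signs.

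Sema3c, which signals through neuropilins and plexin D1 and guides neural crest and vascular cells, was also lower. Its normalized counts were 85.4, 27.8 and 63.2 in the controls and 31.8, 35, 13.8 and 29.5 in KPC-shBrca2 CAFs. Control replicate 2 lay within the KPC-shBrca2 range, so the groups overlapped, and the mean went from 58.8 ± 29.0 to 27.5 ± 9.41 (log2 -1.07 ± 0.40, DESeq2 adjusted p = 0.0824). The edgeR test did not call it (adjusted p = 0.108), and the DESeq2 call was lost in 5 of the 7 fits that left out 1 library (controls 1 and 4, KPC-shBrca2 1, 3 and 4), with adjusted p up to 0.543. The remaining class member, Sema3d, had raw counts of 1 to 16 and a log2 change of -0.93 ± 0.92, and was not called. Its normalized counts of 13.7, 1.27 and 2.92 in the controls overlapped those of 1.72, 2.33, 6.91 and 3.05 in KPC-shBrca2 CAFs.

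**Figure D2:**
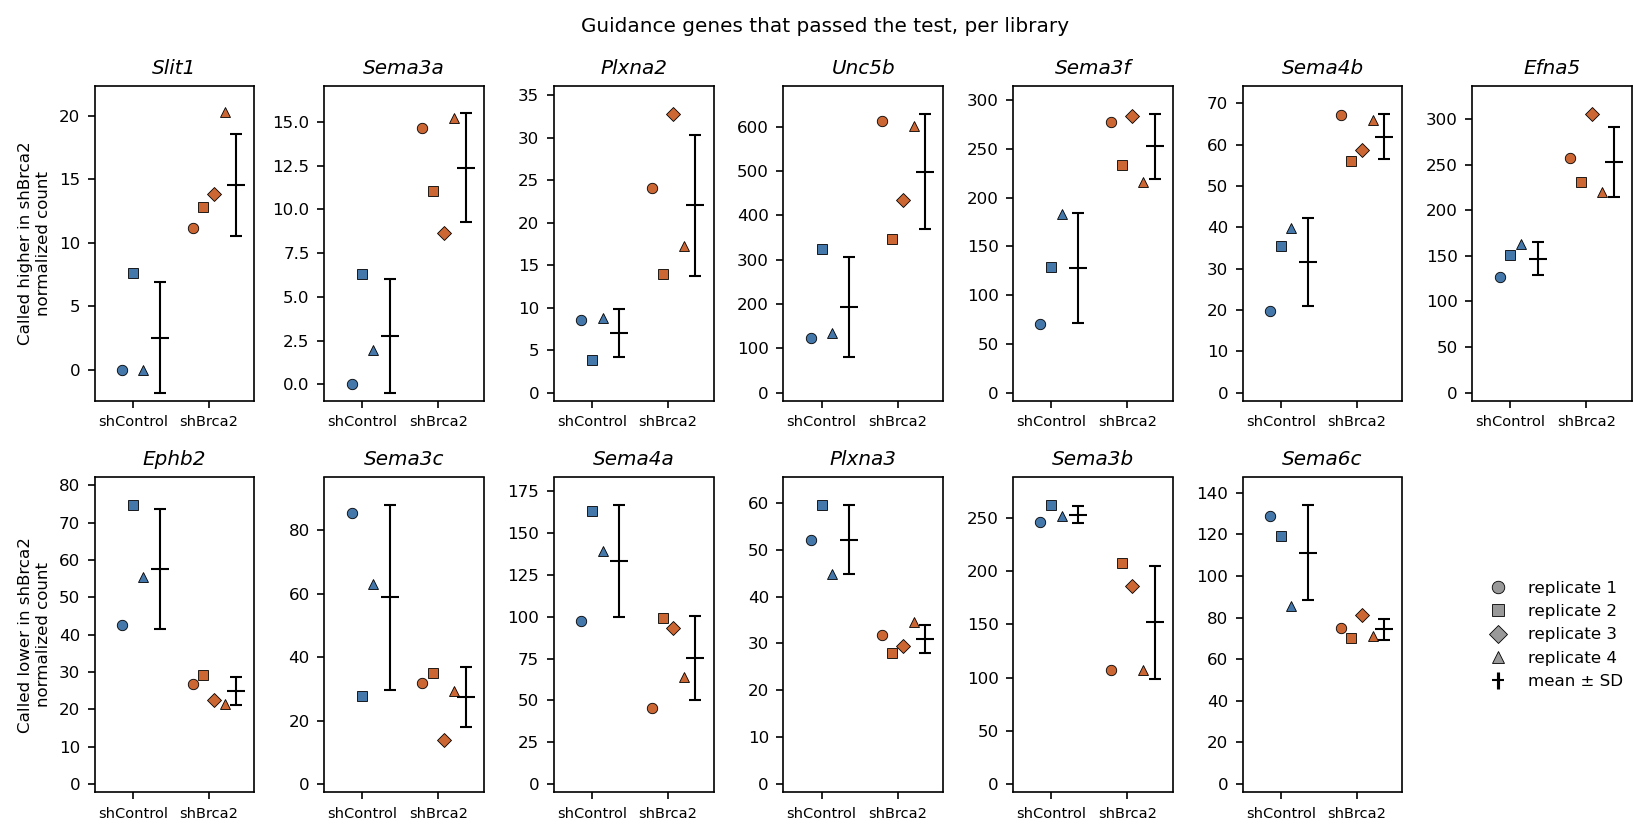
Normalized count per library (y axis, from 0 or just below it) of the 13 guidance genes that passed the test, with the marker shape giving the replicate number and the bar the mean ± SD of 3 KPC-shControl or 4 KPC-shBrca2 libraries. The groups separate in the 7 panels of the upper row, and in the lower row Sema3c and Sema4a overlap while Ephb2, Plxna3, Sema3b and Sema6c do not.

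Among the membrane-bound semaphorins of classes 4 to 7, Sema4b rose and Sema4a and Sema6c fell. Sema4b had 19.6, 35.4 and 39.9 normalized counts in KPC-shControl CAFs and 67.1, 56.0, 58.7 and 66.1 in KPC-shBrca2 CAFs. The KPC-shBrca2 values lay close together above the controls, and the mean rose 1.98-fold from 31.7 ± 10.6 to 62.0 ± 5.48 (log2 0.98 ± 0.30, DESeq2 adjusted p = 0.0230). The call was lost without control replicate 1 (adjusted p = 0.316), KPC-shBrca2 replicate 1 (0.155) or KPC-shBrca2 replicate 4 (0.124).

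Sema4a, best known as a co-stimulator of T cells, stood at 97.4, 163 and 139 in the controls against 45.6, 99.1, 93.3 and 64.0. KPC-shBrca2 replicate 2 was above control replicate 1, so the groups overlapped, and the mean fell from 133 ± 33.3 to 75.5 ± 25.1 (log2 -0.82 ± 0.30, DESeq2 adjusted p = 0.0778; edgeR adjusted p = 0.101). Sema6c had 129, 119 and 85.6 against 74.9, 69.9, 81.2 and 71.1. These groups did not overlap, but control replicate 4 came within a few counts of KPC-shBrca2 replicate 3, and the difference of -0.59 ± 0.23 had a DESeq2 adjusted p of 0.0977. The Sema4a call was lost without control 2 or 4 or KPC-shBrca2 1 or 4 (adjusted p of 0.224 to 0.328), and the Sema6c call was lost in 6 of the 7 such fits, all but the one without control replicate 4 (0.130 to 0.524).

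Sema7a, a GPI-anchored semaphorin that binds plexin C1 and integrins, had the highest mean of the semaphorins. It was not called, with 239, 615 and 159.5 normalized counts in KPC-shControl CAFs and 516, 325, 378 and 605 in KPC-shBrca2 CAFs (log2 0.44 ± 0.38, DESeq2 adjusted p = 0.639). Control replicate 2 held the highest value of all 7 libraries, and without it the log2 difference was 1.19 with an adjusted p of 0.00168. Over the 13 alternative fits the log2 difference of Sema7a ran from 0.10 to 1.19, with DESeq2 or edgeR adjusted p up to 0.971. Sema5a had 51.3, 27.8 and 43.8 against 54.2, 68.8, 119 and 44.7 (log2 0.77 ± 0.36, an unadjusted p of 0.0354 in the DESeq2 test, adjusted p = 0.23). Sema4c, a ligand of plexin B2, gave -0.22 ± 0.22, Sema6d 0.53 ± 0.35 and Sema6a -0.67 ± 0.48 on the log2 scale, none of them called.

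Promoter windows were searched for 3 motifs, and those of 3 called genes are printed: Unc5b, the most stable call, and Sema4b and Sema3c, the called genes that held a match. Each gives the 250 bases before an annotated start in RefSeq on GRCm38.p6, read 5′ to 3′ along the gene, with matches to ACGTG, the core of the hypoxia response element, in capitals.
Unc5b, chr10:60831582-60831831, minus strand: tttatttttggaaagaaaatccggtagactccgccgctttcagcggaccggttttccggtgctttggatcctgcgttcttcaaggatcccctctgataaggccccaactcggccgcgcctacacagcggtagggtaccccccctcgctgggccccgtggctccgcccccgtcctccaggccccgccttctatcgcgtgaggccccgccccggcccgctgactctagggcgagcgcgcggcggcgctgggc
Sema4b, chr7:80186620-80186869, plus strand: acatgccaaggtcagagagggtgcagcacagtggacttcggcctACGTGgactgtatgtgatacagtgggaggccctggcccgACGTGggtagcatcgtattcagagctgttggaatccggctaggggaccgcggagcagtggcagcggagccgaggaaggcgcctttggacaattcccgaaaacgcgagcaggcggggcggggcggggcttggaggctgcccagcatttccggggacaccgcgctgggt
Sema3c, chr5:17574566-17574815, plus strand: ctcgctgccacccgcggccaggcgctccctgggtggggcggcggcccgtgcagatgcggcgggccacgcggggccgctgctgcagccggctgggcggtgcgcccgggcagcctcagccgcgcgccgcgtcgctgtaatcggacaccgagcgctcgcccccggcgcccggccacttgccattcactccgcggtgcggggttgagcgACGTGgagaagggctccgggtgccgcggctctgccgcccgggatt
Promoters were matched for 44 of the 52 members and 10 of the 13 called genes (Slit1, Sema3f and Sema3b were not matched), and motifs were searched on both strands. A gene with several annotated starts has several windows and was counted when any of them held the motif. ACGTG was found in 8 of the 44 members and in 2 of the 10 called genes, Sema4b, which rose, and Sema3c, which fell, against 18.5% of the 27025 genes with a window (16.6% of the 32851 windows). Sema4b has 2 windows, of which the first is printed, and ACGTG was found in both. The heat shock element GAANNTTC was in 0 of the 44 members (7.73% of all genes, 6.69% of all windows), and the AP-1 site TGANTCA in 2 of the 44 and 0 of the 10 called genes (7.82% of all genes, 6.75% of all windows). These counts describe letters in this window only.

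Of the ephrins, Efna5, a GPI-anchored ligand of EphA receptors, was higher. Normalized counts of 127, 151 and 162 in KPC-shControl CAFs stood against 257, 231, 306 and 219.5 in KPC-shBrca2 CAFs. The groups were well apart relative to their spread, with means of 147 ± 17.9 and 253 ± 38.3, a 1.72-fold rise (log2 0.78 ± 0.19, DESeq2 adjusted p = 0.00275). The call held in each of the 7 fits that left out 1 library, with log2 changes of 0.68 to 0.86. Efna5 spans chr17:62602957-62881317 (GRCm38).

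The other ephrins were not called. Efnb1, a transmembrane ephrin and the ephrin with the highest mean, averaged 746 ± 134 in the controls and 834 ± 106 in KPC-shBrca2 CAFs (log2 0.16 ± 0.18, 95% interval -0.20 to 0.52, DESeq2 adjusted p = 0.75). Efna1 gave 0.47 ± 0.37, Efna2 -0.26 ± 0.21, Efna4 0.11 ± 0.23 and Efnb2 0.25 ± 0.35 on the log2 scale. Efnb3, at 15.2 ± 1.42 against 9.72 ± 2.27, did not overlap between the groups and had a log2 difference of -0.65 ± 0.47 (DESeq2 adjusted p = 0.523).

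Slit1 rose from near 0. It had no read in control replicates 1 and 4 and 7.59 normalized counts in control replicate 2, against 11.2, 12.8, 13.8 and 20.3 in KPC-shBrca2 CAFs (raw counts of 0 to 22). The means were 2.53 ± 4.38 and 14.5 ± 4.01 (log2 2.73 ± 0.83, DESeq2 adjusted p = 0.0194), and the call was lost without control replicate 1 or 4 or KPC-shBrca2 replicate 4 (adjusted p of 0.137 to 0.181, log2 changes of 2.05, 2.11 and 2.49). Slit1 and Sema3a passed the minimum mean of 5 only through the KPC-shBrca2 libraries (means over all 7 of 9.39 and 8.27), and they make up 2 of the 7 genes called higher. Without control replicate 2 every remaining control was at 0, and the size of the fitted change then has no fixed value.

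Slit3, the Slit known from mesenchymal tissue and the guidance gene with the highest mean, stood at 2533, 3009.6 and 2971 normalized counts in KPC-shControl CAFs and 2133, 2198, 2569.9 and 1964 in KPC-shBrca2 CAFs. Control replicate 1 lay just below KPC-shBrca2 replicate 3, and the difference of -0.36 ± 0.15 on the log2 scale was not called (unadjusted DESeq2 p of 0.0177, adjusted p = 0.149). Slit2 had raw counts of 3 to 11 and a log2 difference of -0.34 ± 0.71.

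None of the netrins was called. Ntn1, the prototype of the family, had 42.4 ± 13.9 and 37.9 ± 1.13 normalized counts (log2 -0.15 ± 0.31, DESeq2 adjusted p = 0.892). Ntn5 had 2.56, 8.86 and 1.95 in the controls and 15.5, 6.41, 10.4 and 16.3 in KPC-shBrca2 CAFs. Only control replicate 2 reached the KPC-shBrca2 range (log2 1.52 ± 0.69, DESeq2 adjusted p = 0.197), and without it Ntn5 was called (log2 2.41, adjusted p = 0.0577). Ntn3, at 25.3 ± 6.32 against 14.0 ± 4.33, did not overlap between the groups (log2 -0.79 ± 0.41, DESeq2 adjusted p = 0.290), and Ntn4 gave -0.81 ± 0.71.

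Unc5b, a netrin receptor known from vessel sprouting and as a dependence receptor, was the receptor with the largest absolute log2 change after Plxna2. It had 123, 324 and 134 normalized counts in KPC-shControl CAFs and 613, 346, 435 and 601 in KPC-shBrca2 CAFs. All KPC-shBrca2 values were above the controls, though control replicate 2 came close to KPC-shBrca2 replicate 2. The mean rose 2.59-fold from 194 ± 113 to 499 ± 130.2 (log2 1.37 ± 0.33, 95% interval 0.72 to 2.03, DESeq2 adjusted p = 0.00282). Unc5b was called in all 13 alternative fits that were run, with log2 changes of 1.13 to 1.95 when 1 library was left out. Neither of its relatives was called: Unc5a had 112 ± 40.0 and 106 ± 22.4 (log2 -0.07 ± 0.28), and Unc5c, with 22.2, 8.86 and 1.95 against 12, 8.74, 8.64 and 10.2, gave -0.17 ± 0.65. The difference between Unc5b and its relatives was not tested.

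Plexins, the semaphorin receptors, held 1 gene called in each direction. Plxna2, a receptor of class 6 and class 3 semaphorins, stood at 8.54, 3.80 and 8.76 normalized counts in KPC-shControl CAFs and 24.1, 14.0, 32.8 and 17.3 in KPC-shBrca2 CAFs (raw counts of 3 to 28). The groups did not overlap, and the mean rose 2.96-fold from 7.03 ± 2.80 to 22.0 ± 8.32 (log2 1.56 ± 0.52, DESeq2 adjusted p = 0.0370). The call was lost without control replicate 1 or 2 or KPC-shBrca2 replicate 1 or 3 (0.120 to 0.177).

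Plxna3, a close relative that carries class 3 signals together with neuropilin-2, had 52.1, 59.5 and 44.7 against 31.8, 28.0, 29.4 and 34.6. The groups were apart, with means of 52.1 ± 7.35 and 30.9 ± 2.90 (log2 -0.75 ± 0.28, DESeq2 adjusted p = 0.0849), but the adjusted p lay near the threshold and the call was lost in all 7 fits that left out 1 library (0.164 to 0.334).

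Plxnb1, a receptor of Sema4d, ranged over 6.83, 15.2 and 27.2 normalized counts in KPC-shControl CAFs and 29.3, 31.5, 41.5 and 40.7 in KPC-shBrca2 CAFs. The groups did not overlap, and the log2 difference was 1.12 ± 0.43 with a DESeq2 adjusted p just over the threshold (0.1001; unadjusted p 0.00981). It was called with TMM factors (adjusted p = 0.0995), with total count factors (0.056), with a minimum mean raw count of 10 (0.0826) and without control replicate 4 (log2 1.74, 0.0146). Plxna1 had 185, 268 and 199 against 160.1, 158, 152 and 165, also without overlap, and a log2 difference of -0.45 ± 0.19 (DESeq2 adjusted p = 0.159). Plxnb2, the receptor with the highest mean, was at 997 ± 172 and 885 ± 219 (log2 -0.17 ± 0.22, 95% interval -0.60 to 0.26), and Plxnd1 at 210.3 ± 27.9 and 194 ± 74.1 (log2 -0.13 ± 0.28).

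The neuropilins, which pair with plexins to bind class 3 semaphorins, were not called. Nrp1 stood at 412, 230.2 and 219.9 normalized counts in KPC-shControl CAFs and 303, 223, 128 and 236 in KPC-shBrca2 CAFs (log2 -0.37 ± 0.30, DESeq2 adjusted p = 0.606). Nrp2 was at 51.9 ± 7.97 and 63.7 ± 21.0 (log2 0.27 ± 0.31, 95% interval -0.33 to 0.87). The 95% interval of Nrp1 ran from -0.96 to 0.23, so a change past 0.5 in size stays possible for both genes.

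Among the Eph receptors, Ephb2, which binds B-type ephrins and sorts cells into compartments in the gut, was lower. Its normalized counts were 42.7, 74.6 and 55.4 in KPC-shControl CAFs and 26.7, 29.1, 22.5 and 21.3 in KPC-shBrca2 CAFs. All KPC-shBrca2 values lay below all controls, and the mean fell from 57.6 ± 16.1 to 24.9 ± 3.64, that is 2.26-fold (log2 -1.17 ± 0.32, DESeq2 adjusted p = 0.00552). The call held in each of the 7 fits without 1 library, with log2 changes between -1.36 and -0.96. Ephb3, at 131 ± 35.7 and 98.0 ± 15.0, gave -0.42 ± 0.24 (DESeq2 adjusted p = 0.367), and Ephb4, at 88.4 ± 8.96 and 92.0 ± 14.3, gave 0.05 ± 0.23.

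Epha2, a receptor of A-type ephrins much studied in epithelial cancers and the EphA gene with the highest mean, had 86.3, 189.8 and 146 normalized counts against 189, 185, 261 and 197. Control replicate 2 lay within the KPC-shBrca2 range (log2 0.57 ± 0.27, DESeq2 adjusted p = 0.232), and without it Epha2 was called (log2 0.83, adjusted p = 0.0343). Without control replicate 1 the log2 difference of Epha2 was 0.30 (DESeq2 adjusted p = 0.721). Epha3 (log2 -0.32 ± 0.62), Epha4 (0.37 ± 0.33) and the single Robo in the table, Robo1 (16.1 ± 7.16 and 17.2 ± 3.60, log2 0.12 ± 0.45), were not called.

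In 3 sets of relatives, 1 gene was called higher and the other lower, which can be read within each library as a ratio of normalized counts. The ratio of Sema3f to Sema3b was 0.285, 0.493 and 0.726 in KPC-shControl CAFs and 2.60, 1.13, 1.52 and 2.02 in KPC-shBrca2 CAFs. As counts of different 3′ ends are not on 1 scale, such a ratio compares libraries and does not rank the genes within a library. The ratio of Sema4b to Sema4a was 0.202, 0.217 and 0.287 against 1.47, 0.565, 0.63 and 1.03, and that of Plxna2 to Plxna3 was 0.164, 0.0638 and 0.196 against 0.757, 0.50, 1.12 and 0.50. The sets were chosen for their opposite calls, which fixes the direction of the ratios, so they are a description and carry no test.

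**Figure D3:**
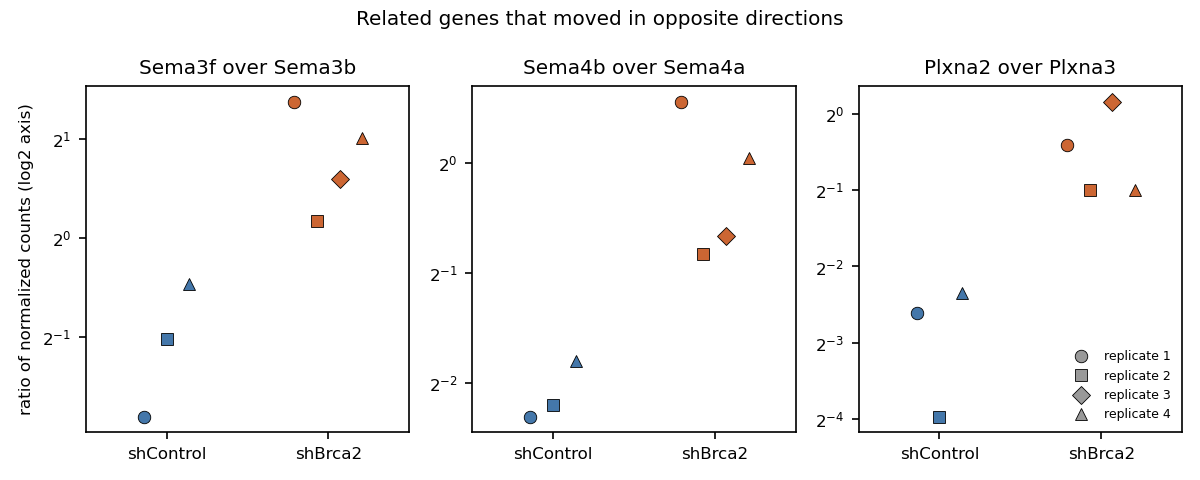
Ratio of the normalized counts of the gene called higher to that of its relative called lower (y axis, log2-scaled) in each library, with marker shapes for replicate numbers. Control ratios lie between 0.0638 and 0.726 and KPC-shBrca2 ratios between 0.50 and 2.60 over the 3 panels, without overlap within a panel.

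Ligands and their receptors were compared over a list of 23 known pairs, of which 18 had both genes in the table (Sema3e, Sema4d, Robo2 and Robo4 were not analysed here). In 9 of these 18 pairs 1 gene was called, and in 0 pairs were both called. Both genes also had an unadjusted DESeq2 p under 0.05 in 0 pairs, and edgeR called both in 0 pairs. These counts hold for the listed pairs only. The list held no pair with Plxna3 or Sema3b. It paired Plxna2 only with Sema6a, Efna5 only with Epha3 and Ephb2 only with Efnb1. Other combinations of called ligands and called receptors, such as semaphorins with Plxna2 or Plxna3, were not counted, so the list cannot show that no ligand changed together with a receptor. Sema3a and Sema3c, which both bind Nrp1, had log2 changes of 2.34 and -1.07 beside -0.37 for Nrp1. Sema3f stood at 0.99 beside 0.27 for Nrp2, Efna5 at 0.78 beside -0.32 for Epha3, and Unc5b at 1.37 beside -0.15 for Ntn1 and -0.81 for Ntn4. Ephb2 stood at -1.17 beside 0.16 for Efnb1.

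Genes that act next to the 52 members were taken from 3 lists, also chosen with earlier results of these data known. Of the co-receptors and further ligands, 7 of the 25 in the table were called (28.0%, beside 9.04% of all genes), 3 higher and 4 lower, with a median log2 change of -0.04. The higher genes were Flrt2, a membrane protein that repels through Unc5 receptors (242 ± 33.2 to 428 ± 81.2, log2 0.82 ± 0.20), the heparan sulfate proteoglycan Sdc1 (0.99) and the VEGF receptor Flt1 (28.2 ± 2.54 to 66.7 ± 24.6, log2 1.23 ± 0.35), which is also on the endothelial marker list. The lower genes were Rgma, a neogenin ligand (164 ± 16.2 to 95.9 ± 15.3, log2 -0.79 ± 0.20), Cdon, a relative of the netrin receptors and a hedgehog co-receptor (282 ± 80.6 to 123 ± 37.8, log2 -1.19 ± 0.28), Islr2 (79.5 ± 17.5 to 28.5 ± 7.79, log2 -1.46 ± 0.31) and Draxin, a netrin antagonist (-0.92). Neo1, which encodes neogenin, was at 100.1 ± 29.7 and 117 ± 32.1 (log2 0.20 ± 0.28, DESeq2 adjusted p = 0.795).

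Of the cytoplasmic effectors, 5 of 52 in the table were called (9.62%, close to the 9.04% of all genes), with a median log2 change of 0.03. Mical2, an actin-oxidizing enzyme (log2 0.99), Arhgef12, a RhoA exchange factor that binds B-type plexins (0.59), and Pdlim7 (0.73) were higher, and the Src family kinase Fyn (-1.14) and the cofilin kinase Limk1 (-0.64) were lower. Of the proteases that shed ephrins and the adaptors of Eph signaling, 2 of 17 were called (11.8%), Rin1 (0.95) and Nedd9 (0.85), both higher. Ptprb (means of 0.42 and 7.90, log2 4.41, DESeq2 adjusted p = 0.0062) was higher without overlap. So was Arhgef15 (means of 0.75 and 5.96, log2 3.10, DESeq2 adjusted p = 0.0556). Neither was called, as their mean normalized counts over all libraries did not exceed 5.

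Stability differed between the 13 called genes. Unc5b, Efna5 and Ephb2 were called in each of the 7 fits that left out 1 library, Sema3f in 6, Sema4b and Slit1 in 4, Sema3a, Sema4a and Plxna2 in 3, Sema3b and Sema3c in 2, Sema6c in 1 and Plxna3 in 0. Without control replicate 1 the count fell from 7 higher and 6 lower to 2 and 2. Without control replicate 2, 4 or KPC-shBrca2 replicate 1, 3 or 4, the number called lower was 2, 2, 1, 3 and 1, and the number called higher was 4 without KPC-shBrca2 replicate 1 or 4. Among the 7 genes called higher the highest control was replicate 2 in 3 and replicate 4 in 4, and never replicate 1, the control with the lowest epithelial, pericyte, endothelial and mesothelial marker sums. Replicate 1 also had the highest immune (306) and Schwann cell (98.2) sums of the controls. Replicate 4 was the control with the highest epithelial (1166), endothelial (265) and mesothelial (3239) sums. Replicate 2 was the highest control for Unc5b, Sema3a and Slit1 among the genes called higher, and for Sema7a, Epha2 and Ntn5, which were not called. It was also the control with the highest pericyte marker sum (1827). The part of these marker lists in these values was not tested.

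**Figure D4:**
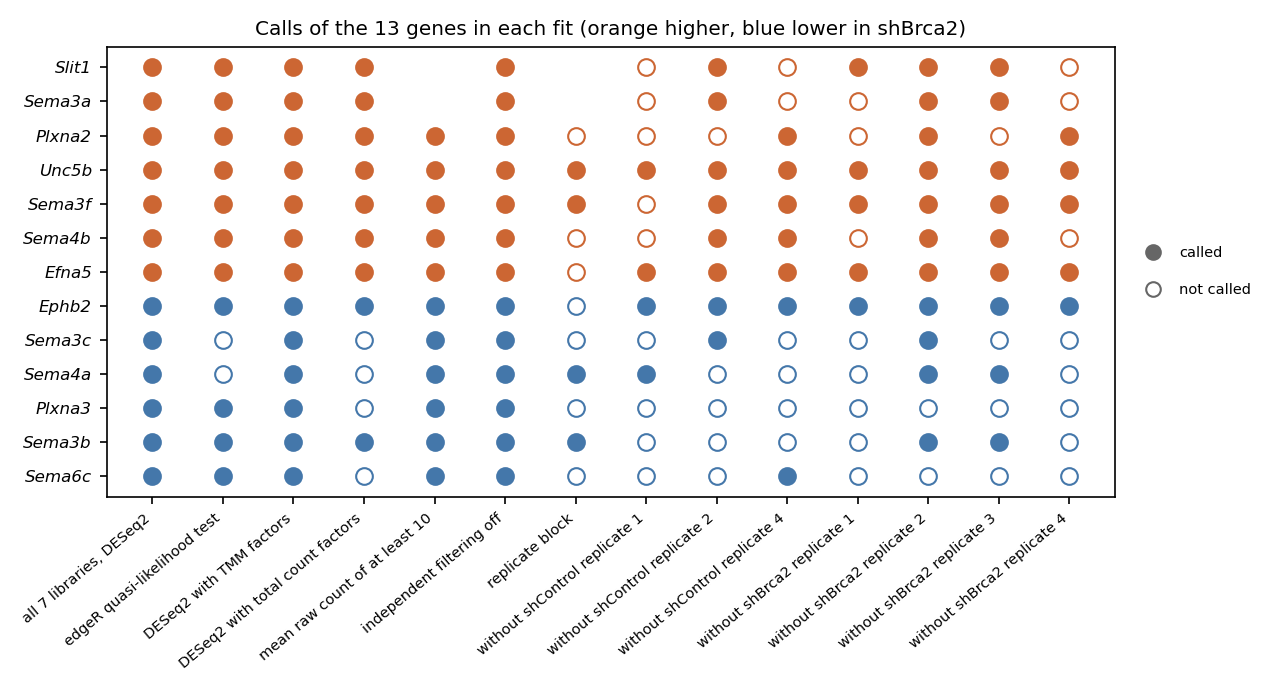
Calls of the 13 guidance genes (rows) in the fit on all 7 libraries and in 13 alternative fits (columns), filled where the gene was called and open where it was not, orange for higher and blue for lower in KPC-shBrca2 CAFs. Unc5b is filled in every column, Plxna3 is open in each of the 7 columns without 1 library, and Sema3a and Slit1 have no symbol where they were not fitted or had no adjusted p.

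Exons of 32 of the 52 members share bases with another annotated gene, which affects 4 of the called genes: 16.8% of the exon bases of Plxna2, 7.62% of Sema4a, 5.02% of Ephb2 and 4.48% of Sema3b. As the strand setting of the counting is not given in the sources used here, reads of these genes and of the genes that overlap them cannot be told apart over the shared bases. Mir7011, which shares bases with Sema4a, lies on the same strand. The percentages cover the exons of all annotated transcripts. Whether the counted 3′ reads fall on shared bases was not tested.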

How the data were processed

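CAF libraries were made by a bulk variant of MARS-seq, a 3′-end method, and the authors deposited raw read counts per gene for 7 libraries. Per the submitters' processing notes, bcl2fastq, cutadapt, STAR 2.4.2a, HTSeq and DESeq2 were used on mm10 (GRCm38); strand setting and handling of molecular identifiers are not given in the sources used here. From these counts, DESeq2 1.42.0 (R 4.3.3) was fitted to all 12771 genes with a likelihood ratio test of group, no covariate and median-of-ratios size factors, with Benjamini-Hochberg adjustment over all genes. Of these, 3 genes got no p. Genes were called at an adjusted p under 0.1, a log2 fold change over 0.5 in size and a mean normalized count over 5, as in the study's methods. The fit was checked on simulated data. Alternatives were edgeR 4.0.16, TMM or total count factors, a mean raw count of at least 10, no independent filtering, a replicate block, each library left out, an adjusted p under 0.05 and no minimum fold change. Leaving out 1 of 3 controls leaves 2. The labels name each library as a separate sample, and p-values measure the spread between them.

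The text names each called member, the member with the highest mean of each family, members with an unadjusted p under 0.05, members of the listed pairs and called genes of the pathway lists. Further members, such as Unc5a, Efnb3 and Ntn3, are named for family context and were chosen after their values were seen. The members and lists were chosen with earlier results of these data known. Same-numbered libraries of the groups did not deviate together (r of -0.10 to -0.07, others -0.10 to 0.19). Levels per transcript length were not computed, since 3′ counts do not scale with length. Gene positions came from RefSeq on GRCm38.p6 and shared exon bases from GENCODE on GRCm39. Intervals cover the model's error only. Protein sequences were not used here.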

Additional observations from a re-analysis of the deposited data

Results flagged for a closer look

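In the 4 KPC-shBrca2 libraries Epha2 had normalized counts of 189, 185, 261 and 197, and replicate 3 stood apart from the rest, with a gap to its nearest neighbor of 0.843 of the group's whole range. That is above Dixon's 95% critical value for 4 samples. Epha2 was the 1 gene past that value of the 52 tested in this group, where chance passes about 1 group in 20.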

How the results depend on the processing

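The DESeq2 fit on all 7 libraries called 7 guidance genes higher and 6 lower. The count called lower was 2 with total count factors and 1 at an adjusted p under 0.05, and leaving out 1 library gave 2 to 9 higher and 1 to 4 lower. With the replicate block, whose numbers did not pair the libraries, 2 were higher and 2 lower: Unc5b, Sema3f, Sema3b and Sema4a kept their calls, and Sema3a and Slit1 had no adjusted p. The median log2 change of the members (-0.09) was 0.0303 with total count factors, 0.039 with the replicate block and -0.14 to 0.0835 without 1 library. With a mean raw count of at least 10, 43 members were fitted and Sema3a and Slit1 were not among them. The other settings stayed within 1.5 times of the counts of 7 and 6.

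Of 652 refitted changes of single members, 26 reversed, in 11 members, none of them called. With total count factors Ephb1 was at 0.0629, Ephb6 at 0.0011 and Unc5a at 0.0595. With the replicate block Epha3 was at 0.32, Ephb4 at -0.0104, Ephb6 at 0.0489 and Unc5a at 0.0291. Without 1 library the ranges were -0.79 to 1.04 for Epha3, -0.62 to 0.82 for Ephb1, -0.0308 to 0.13 for Ephb4, -0.43 to 0.0936 for Ephb6, -0.41 to 0.0503 for Ntn1, -0.39 to 0.0564 for Plxnd1, -0.19 to 0.50 for Robo1, -0.33 to 0.0734 for Sema6b, -0.59 to 0.14 for Slit2, -0.24 to 0.25 for Unc5a and -0.68 to 0.94 for Unc5c. The cause was not tested. At raw counts of 0 to 28, Slit1, Sema3a, Plxna2, Ntn5 and Slit2 are limited by depth.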
